A study of Homo sapiens with 12 samples.

Results

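PIKFYVE, CDIN1, KCTD13-DT and PTGS2 are 4 of the 61255 rows of a table of raw read counts per gene, and they were chosen by their own counts, which are high in one engineered cell line, NLS, and near 0 in the NES or the G3BP1 line. The differences between lines that chose them are therefore given below as a description with no test. The cells were Huh-7.5, an established human hepatocellular carcinoma line. The genotypes are APEX-NES, APEX-NLS and APEX-G3BP1, where APEX usually names a peroxidase for proximity labelling, NES a nuclear export signal and NLS a nuclear localization signal. G3BP1 is a protein of stress granules. All groups carry APEX, and no line without it was analysed here. Each line was mock treated or given 0.5 mM sodium arsenite, a cell stressor, for 45 minutes. With 2 replicates each this gave 12 libraries, made with a strand-keeping kit from Trizol-isolated RNA depleted of ribosomal RNA. Whether a line is 1 clone, and whether replicates came from separate cultures, is not given in the sources used here, so the p-values measure only the spread between these libraries.

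The 4 rows name genes of unrelated function. PIKFYVE is the lipid kinase that makes the bisphosphorylated phosphoinositide of late endosomes, where it controls membrane traffic and lysosome size. PTGS2, the inducible cyclooxygenase, makes the precursor of all prostanoids and is known as an immediate response gene of inflammation. CDIN1 encodes a predicted nuclease that binds codanin, and variants of either gene cause a congenital dyserythropoietic anaemia. KCTD13-DT is a long non-coding RNA transcribed divergently from KCTD13, an adaptor of the cullin-3 ubiquitin ligase.

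The libraries held 1090308 to 1461067 counts, and 1254922 to 1461067 in the NLS line. A level of 3 counts, taken as the smallest that a library can show, was 2.08 to 2.88 CPM (the count scaled to the size of the library). A gene name below denotes a row of the table. How the counting treated strand is not given in the sources used here. In 2737 pairs in which exons of a protein-coding gene and of a long non-coding RNA overlap on opposite strands, and which held at least 120 counts in all, the non-coding row was the higher in 1928 (70.4%). Whether the counts of the 4 rows come from the named gene or from RNA of its other strand cannot be told apart. Of 15 hepatocyte marker rows 9 could be tested, APOH was at 0 in every library, and ALB, the gene of serum albumin, had 11 to 29 counts per library. These 15 rows summed to 284 to 444 counts in the NLS, 303 to 391 in the NES and 369 to 510 in the G3BP1 libraries. Marker rows of fibroblasts (7), leukocytes (6), endothelial (4) and erythroid cells (4) summed to 25 to 62, 24 to 58, 0 to 4 and 5 to 7 counts in the NLS libraries, and to 9 to 81, 19 to 80, 0 to 14 and 2 to 21 over all libraries. LUM, VWF, KDR and HBB were among the marker rows at 0 in every library. The part of these cell types in the results was not tested.

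PIKFYVE lies on chromosome 2 from 208266267 to 208358751, on the plus strand in GENCODE release 29 on GRCh38, with 10832 bases of exon. Its row had 285 and 292 counts in the NLS mock libraries and 170 and 191 in the NLS arsenite libraries. The NES libraries had 0 and 0 counts after mock treatment and 2 and 0 after arsenite, and the G3BP1 libraries had 1, 0, 1 and 0. Every NLS library was thus far above every library of the other lines. The summed mock counts of the NLS line were at least 196-fold those of the NES line, when the NES group at 0 is set at 3 counts over both libraries. Against the single count of the G3BP1 mock libraries the ratio was 473, with an exact 95% counting interval from 84.6 to 18714. Such floors and intervals cover counting error only.

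CDIN1, named C15orf41 in GENCODE release 29, lies on chromosome 15 from 36579611 to 36810248 on the plus strand and has 9293 bases of exon. It had 218 and 197 counts in the NLS mock and 202 and 177 counts in the NLS arsenite libraries. All G3BP1 libraries and 3 of the 4 NES libraries had 0 counts, and the remaining NES library, arsenite replicate 2, had 2. The mock and arsenite libraries of the NLS line overlapped, unlike those of PIKFYVE. In the mock libraries the NLS line was at least 141-fold above NES and at least 113-fold above G3BP1.

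KCTD13-DT is the shortest of the 4 rows, with 1762 bases of exon on chromosome 16 between 29926836 and 29928933 on the plus strand. It had 98 and 115 counts in the NLS mock libraries and 48 and 51 in the NLS arsenite libraries. Elsewhere it had 1 count in all, in G3BP1 mock replicate 2. The NLS mock sum was at least 72.4-fold that of NES.

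PTGS2 lies on chromosome 1 from 186671791 to 186680427 on the minus strand, with 5269 bases of exon. It had 46 and 59 counts in the NLS mock and 37 and 38 in the NLS arsenite libraries. It was also the row with the most counts outside the NLS line, with 0, 2, 3 and 1 in the NES libraries and a single count in the G3BP1 line. The NLS mock sum was 53.5 times the NES mock sum (exact 95% interval 14.5 to 448) and at least 28.7-fold that of G3BP1. Of all counts of the row, 96.3% came from NLS libraries, against 99.6% for PIKFYVE and 99.7% for both CDIN1 and KCTD13-DT.

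**Figure D1:**
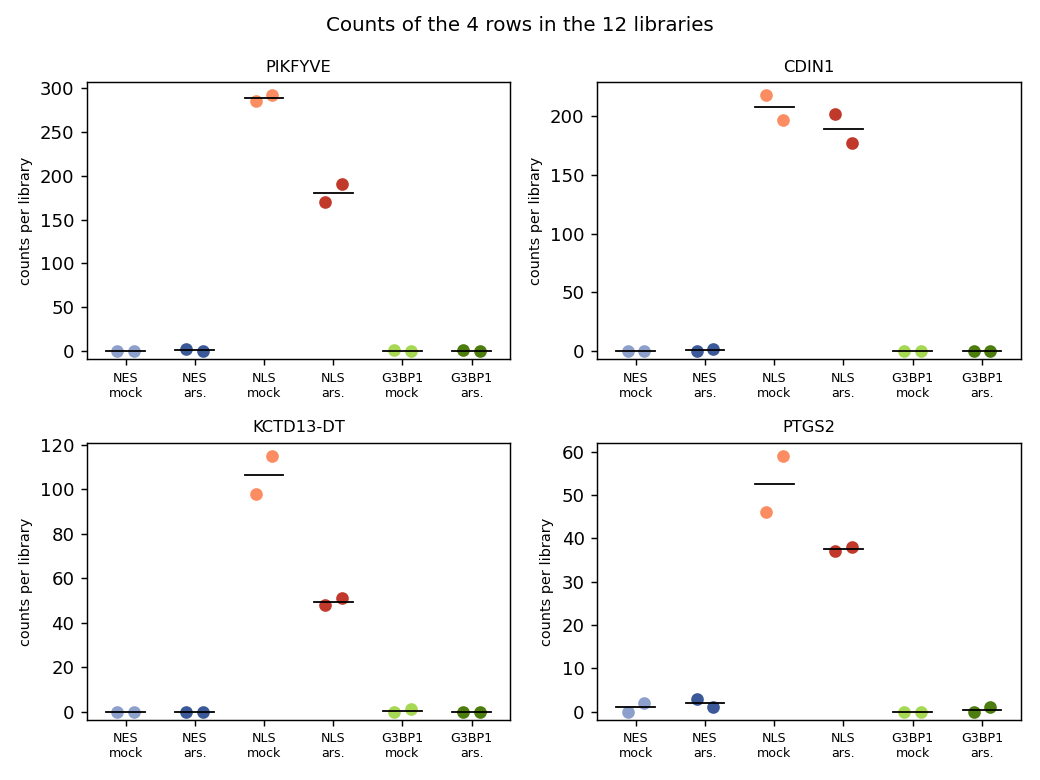
Counts per library (linear axis) of PIKFYVE, CDIN1, KCTD13-DT and PTGS2 in the 6 groups of 2 libraries. Points are libraries and lines are group means. All NLS libraries lie at 37 counts or more and all others at 3 or fewer.

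Levels of different genes were compared per kilobase of exon. In the NLS mock libraries KCTD13-DT was highest with 46.5 ± 4.70 CPM per kb (SD, n = 2), followed by PIKFYVE with 20.5 ± 0.108, CDIN1 with 17.2 ± 1.44 and PTGS2 with 7.66 ± 1.25 CPM per kb. After arsenite KCTD13-DT was at 20.4 ± 0.422 CPM per kb, CDIN1 at 14.8 ± 2.32, PIKFYVE at 12.1 ± 0.226 and PTGS2 at 5.16 ± 0.231. Each row's libraries lay apart from those of the next in both orders, in which PIKFYVE and CDIN1 change places. With 2 libraries per group these gaps were not tested.

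The arsenite effect within the NLS line was not used to pick the rows and was tested on the whole table with edgeR's quasi-likelihood test. KCTD13-DT and PIKFYVE fell. KCTD13-DT went from 81.9 ± 8.28 to 35.9 ± 0.744 CPM (SD, n = 2), with a log2 fold change of −1.19 and an SE of 0.198 (edgeR adjusted p = 8.12e-07). PIKFYVE went from 222 ± 1.16 to 131 ± 2.45 CPM, with a log2 fold change of −0.77 and an SE of 0.131 (edgeR adjusted p = 1.53e-06). In both rows the mock and arsenite libraries did not overlap. PTGS2 differed by −0.57 on the log2 scale (SE 0.243), from 40.4 ± 6.60 to 27.2 ± 1.22 CPM, and did not pass the threshold (edgeR adjusted p = 0.0888). CDIN1 stood at 160 ± 13.3 and 138 ± 21.6 CPM, a log2 difference of −0.22 (SE 0.142, edgeR adjusted p = 0.314). So 2 of the 4 rows were called lower and 0 higher, where 8.14% of the 13108 rows tested were called lower and 9.67% higher, 17.8% in all. Whether the 4 effects differ from each other was not tested. In the other lines these rows had at most 3 counts per library, so an arsenite effect there was not detectable at this depth and the effect cannot be compared between lines.

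PTGS2 is often described as induced by cell stress. In the NLS line its 4 libraries showed no rise, and elsewhere a change was not detectable. In the NES line it had 0 and 2 counts before and 3 and 1 after arsenite, and in the G3BP1 line 0 and 0 before and 0 and 1 after, all at or under the floor.

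The 4 rows belong to a small group. In the whole table, 34 rows (0.0555%) had at least 10 counts in all 4 NLS libraries and at most 3 in the other 8, a rule chosen after the values were seen. The same rule found 26 rows for the NES line and 0 for the G3BP1 line. By mean CPM in the NLS line PIKFYVE was the highest of the 34, CDIN1 came second, KCTD13-DT had rank 5 and PTGS2 rank 11. BICC1 at rank 3 and TENT5A at rank 4 stood between them, with 128 to 197 and 63 to 95 counts in the NLS libraries. These shares of the table, 0.0555% for NLS and 0.0424% for NES, count the rows that fixed the choice here and are given as a description. The median arsenite effect of the 34 rows in the NLS line was −0.45 (log2), against −0.0053 for all rows tested. Of the 34, 8 were called lower after arsenite and 0 higher by edgeR, beside 8.14% and 9.67% of all rows tested. ZWILCH, a kinetochore gene, had the lowest log2 fold change of the group with −1.40 (SE 0.310), next to KCTD13-DT.

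**Figure D2:**
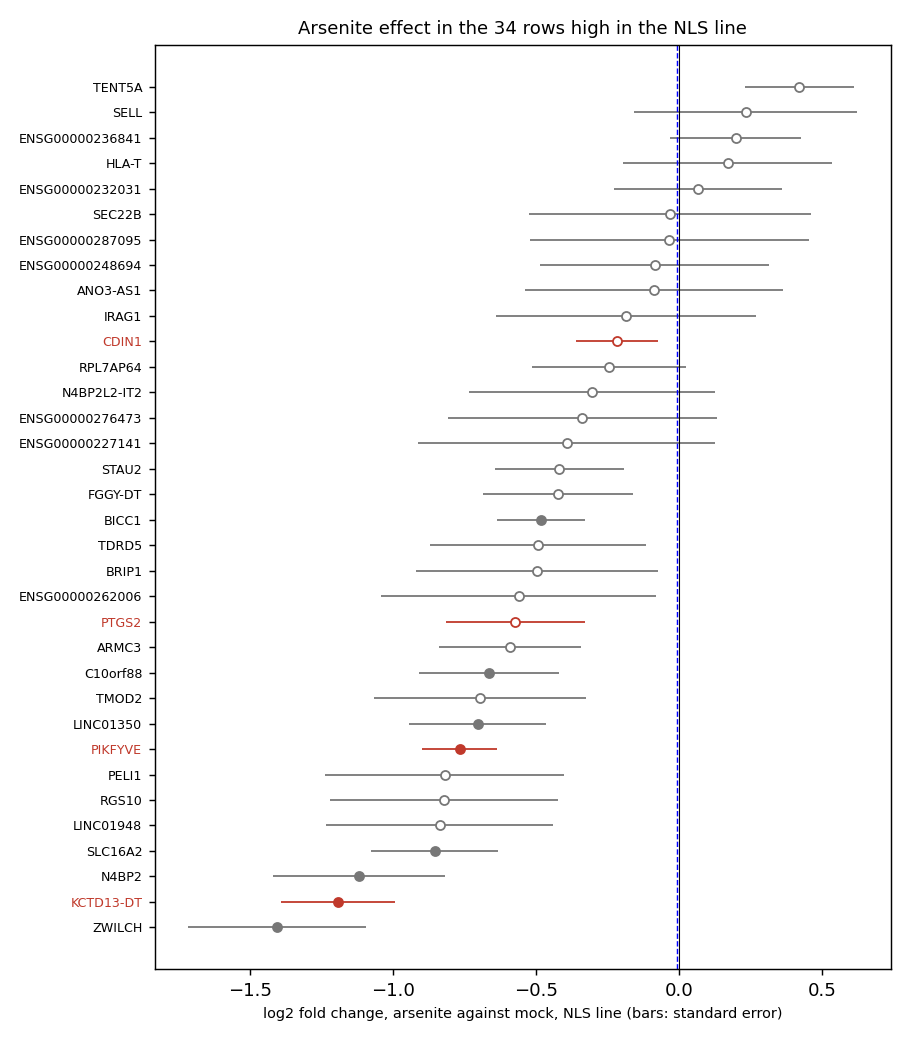
Log2 fold change of arsenite against mock in the NLS line (x axis; bars are standard errors) for the 34 rows with at least 10 counts in each NLS library and at most 3 in any other, with the 4 rows described here in red. Filled points have an edgeR adjusted p under 0.05 and the dashed line is the median of all tested rows at −0.0053. KCTD13-DT and PIKFYVE are the filled red points and most of the other rows also lie left of 0.

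By Pearson correlation of log2 CPM over the 12 libraries, which share one sequencing depth range and mostly reflect presence in 4 libraries, the rows most like PIKFYVE were LINC01350 (r = 0.9965), ENSG00000276473 (r = 0.9953) and ARMC3 (r = 0.9948). TMOD2, ENSG00000232031 and LINC02685 were most like CDIN1 (r = 0.9946 to 0.9951). RGS10, ARMC3 and TDRD5 were most like KCTD13-DT (r = 0.9951 to 0.9966). For PTGS2 these were ENSG00000276473, LINC01350 and A2M-AS1 (r = 0.9847 to 0.9873). RGS10, a regulator of G protein signalling, had 25 and 25 counts after mock treatment, 13 and 17 after arsenite and 0 in all other libraries. A2M-AS1 differs from the rest, with 330 to 446 counts in NLS libraries and 65 to 126 in all others. Among themselves the 4 rows correlated with r between 0.9709 and 0.988.

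The neighbouring genes were taken as all rows that overlap each of the 4 and the 5 nearest on each side. This gave 47 rows, of which 11 had 0 counts in every library, 31 had under 10 in every library and 14 could be tested. In the NLS line against the NES line, over both treatments, 5 of the 14 were called higher and 0 lower by edgeR, where 5.51% of all rows tested were called higher and 6.78% lower. At an unadjusted p under 0.05 there were 6, all higher. Without NLS mock replicate 1 the 5 became 2, and DESeq2 called 1. Against the G3BP1 line 4 were called higher and 0 lower, with 15.8% of all rows higher and 16.4% lower, and DESeq2 called 3. The median log2 fold change of the 14 was 0.32 against NES and 0.35 against G3BP1, beside 0.0042 and 0.011 over all rows tested. Both comparisons use the same NLS libraries. ASPHD1 and PDC were called higher in NLS than in both other lines, as were 3.93% of all rows. PTH2R, the 1 row that DESeq2 called against NES, and ENSG00000233196 were also called, but could be tested only through their NLS counts. The counts of calls and the medians include both rows, so they are a description. After arsenite in the NLS line edgeR called 0 of the 14 and DESeq2 called 0. Only PTH2R, which passed the filter only through its NLS mock counts, had an unadjusted p under 0.05. The arsenite effect of 0 of the 14 was called different between NLS and NES or between NLS and G3BP1 by edgeR or DESeq2, where edgeR called 0.0153% and 0.183% of all rows, and 1 and 2 of the 14 had an unadjusted p under 0.05.

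PTH2R, a receptor of the parathyroid hormone family, had counts in the NLS libraries and in no other. It begins 0.963 kb downstream of PIKFYVE on the same strand. It had 19 and 18 counts in the NLS mock libraries, 10 and 6 in the NLS arsenite libraries and 0 in all 8 libraries of the other lines. The mock sum was at least 12.6-fold that of NES and at least 10.1-fold that of G3BP1, given with no test because the row passed the filter only through its NLS counts. Its log2 fold change after arsenite in the NLS line was −1.28 (SE 0.507). This too is given with no test, because the row passed the filter only through its NLS mock counts. Of the other rows around PIKFYVE, 2 were tested and neither was called. IDH1, which encodes the cytosolic isocitrate dehydrogenase, had 5, 8, 9 and 11 counts in the NLS libraries, 4 to 13 in NES and 2 to 9 in G3BP1, and was not called in either line comparison (edgeR adjusted p = 0.954 and 0.457). MYL6BP1, a pseudogene inside PIKFYVE on the other strand, had 4 to 17 counts in NLS, 5 to 12 in NES and 2 to 10 in G3BP1 libraries (edgeR adjusted p = 0.890 and 0.809). ARPC1BP1, a pseudogene 1.88 kb downstream on the other strand, had 4, 6, 5 and 7 counts in the NLS libraries, 2, 1, 4 and 0 in NES and 4, 2, 1 and 3 in G3BP1. IDH1-AS1, upstream on the same strand, summed to 17 counts in NLS, 9 in NES and 7 in G3BP1. Both were too low to be tested and had more counts in NLS than in either other line.

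Around CDIN1, 0 of 4 tested neighbours were called in either line comparison by edgeR or DESeq2, and 1 of them, ENSG00000259460, had an unadjusted p under 0.05, against NES (log2 fold change 0.53, edgeR adjusted p = 0.0836). CSNK1A1P1, a pseudogene inside CDIN1 on the opposite strand, had 13 to 22 counts in the NLS, 13 to 20 in the NES and 8 to 20 in the G3BP1 libraries. LARP4P, a pseudogene inside CDIN1 on the same strand, had 1, 4, 6 and 1 counts in the NLS libraries and 0 in the other 8. LINC02853, 530 kb upstream, had 8, 3, 6 and 5 counts in NLS, 0 to 1 in NES and 0 to 2 in G3BP1. Both were too low to be tested. The gene for the transcription factor MEIS2, 79.0 kb downstream, did not pass the threshold (edgeR adjusted p = 0.990 against NES and 0.358 against G3BP1).

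Around KCTD13-DT its partner KCTD13 had at most 7 counts in any library. KCTD13 shares 200 bases of exon, 11.4% of those of KCTD13-DT, on the opposite strand. It had 0, 3, 7 and 3 counts in the NLS libraries, 1 to 5 in NES and 1 to 3 in G3BP1 and was too low to be tested. ASPHD1, 6.97 kb upstream on the same strand as KCTD13-DT, had 43 and 28 counts in NLS mock and 31 and 44 in NLS arsenite libraries, against 17 to 27 in NES and 9 to 18 in G3BP1. The NLS line lay above both others in every library, by 0.77 over NES on the log2 scale (SE 0.206, edgeR adjusted p = 0.00408) and 1.16 over G3BP1 (SE 0.227, edgeR adjusted p = 8.28e-06). The first call was lost without NLS mock replicate 1 (log2 fold change 0.60, edgeR adjusted p = 0.0927) and in DESeq2 (adjusted p = 0.153). TAOK2, TMEM219, SEZ6L2 and CDIPT, protein-coding genes of the same stretch of chromosome 16, were too low to be tested, and HIRIP3, INO80E and DOC2A were not called.

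Of the 3 tested neighbours of PTGS2, PDC and LINC01036 were called higher in NLS than in NES by edgeR. Among all rows tested 5.51% were called higher. DESeq2 called 0 of the 3 neighbours. ENSG00000233196, a processed pseudogene 90.6 kb downstream, had 7, 13, 11 and 7 counts in the NLS libraries and 1 to 4 in all others, sums of 38 in NLS, 8 in NES and 8 in G3BP1. It too passed the filter only through NLS libraries, so no test is given. As a processed pseudogene it may share reads with its parent gene. PDC, the gene of the photoreceptor protein phosducin, had 51 to 60 counts in NLS, 33 to 42 in NES and 22 to 45 in G3BP1. Its log2 fold change was 0.53 over NES (SE 0.165, edgeR adjusted p = 0.0184) and 0.60 over G3BP1 (SE 0.173, edgeR adjusted p = 0.00324). The call over G3BP1 was lost in 1 of 20 alternatives. The call over NES was lost in 6 of 20 alternatives, 4 of them fits without 1 library: NES mock replicate 1 (adjusted p = 0.0662), NES arsenite replicate 1 (0.0664), NLS mock replicate 1 (0.106) and NLS arsenite replicate 1 (0.0778). LINC01036, 390 kb upstream, was higher in NLS than in NES (log2 fold change 0.62, SE 0.168, edgeR adjusted p = 0.00476), with 46 to 63 against 21 to 49 counts, and not higher than in G3BP1 (log2 fold change −0.012, edgeR adjusted p = 0.971). Its call over NES was lost without NES mock replicate 2 (adjusted p = 0.0905) and without NLS mock replicate 1 (0.0603). PLA2G4A, the phospholipase that releases the substrate of PTGS2 and lies 149 kb upstream of it, had 0 counts in all NLS libraries and at most 1 elsewhere.

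**Figure D3:**
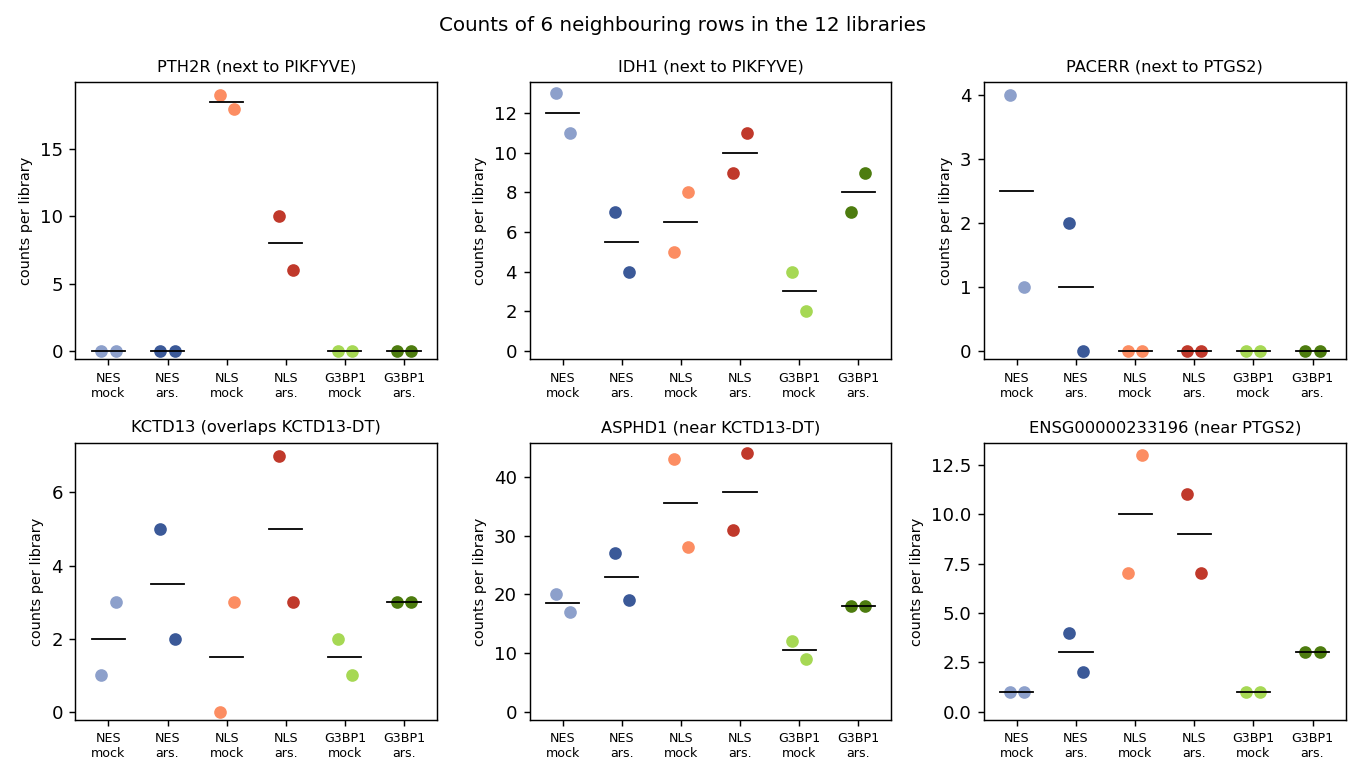
Counts per library (linear axes that differ between panels) of 6 rows next to PIKFYVE, KCTD13-DT or PTGS2, by line and treatment. Points are libraries and lines are group means. PTH2R has counts in NLS libraries only, PACERR in NES libraries only, and IDH1 and KCTD13 in all lines.

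Within 1 Mb of the 4 rows, a window chosen after the values were seen, 67 rows could be tested. Of these, 13 were called between NLS and NES, 7 higher and 6 lower in NLS, and 21 between NLS and G3BP1, 10 higher and 11 lower. Of all rows tested, 12.3% and 32.2% were called in these comparisons. The median log2 fold change of the 67 rows was −0.051 against NES and 0.022 against G3BP1, beside 0.0042 and 0.011 for all rows. The rows called higher include PTH2R, ENSG00000233196, SMG1P2 and SMG1P5. All of these passed the filter only through NLS libraries, so the counts of calls and the medians are a description. SMG1P5, downstream of KCTD13-DT, had 53 counts in NLS, 17 in NES and 21 in G3BP1. SMG1P2, a pseudogene upstream of KCTD13-DT, had 32 counts in the NLS libraries together, 3 in NES and 4 in G3BP1, and could be tested only through its NLS counts. It belongs to a family of near-identical copies, so its counts are uncertain. ENSG00000285043, 124 kb downstream of KCTD13-DT, had the largest fall, with 26, 65 and 46 counts (log2 fold change −1.36 against NES, edgeR adjusted p = 0.00223).

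**Figure D4:**
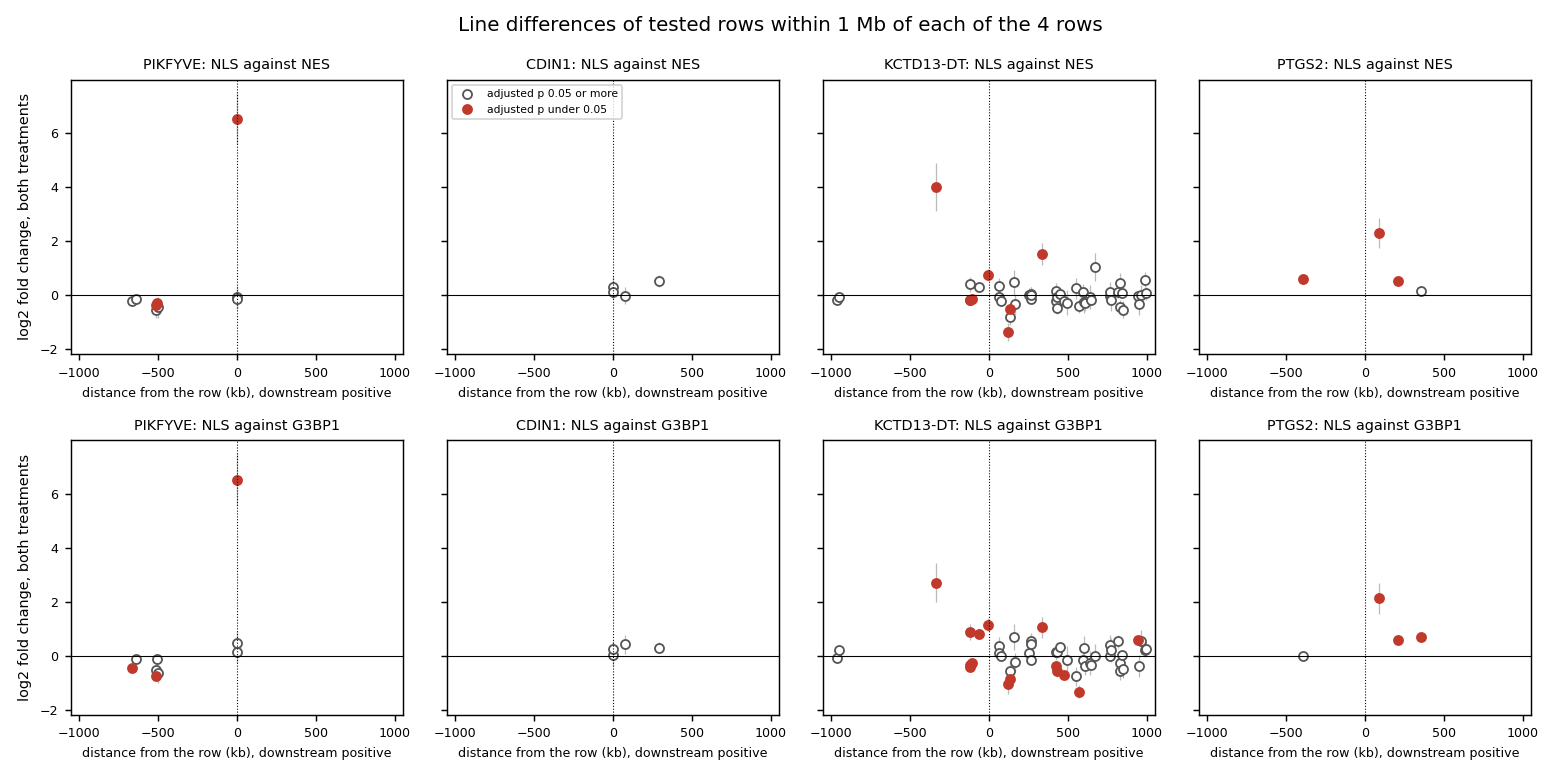
Log2 fold change of NLS against NES (top) and against G3BP1 (bottom), over both treatments, for the tested rows within 1 Mb of each of the 4 rows, by distance from the row in kb. Bars are standard errors and filled points have an edgeR adjusted p under 0.05. PTH2R is the point at the edge of PIKFYVE and most other rows lie near 0. Some rows, such as PTH2R and ENSG00000233196, could be tested only through their NLS counts, so their points are a description.

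A start site on the opposite strand lies within 1 kb of the start of 3 of the 4 rows. In GENCODE release 29 PIKFYVE starts 193 bases from IDH1, PTGS2 195 bases from PACERR and KCTD13-DT 199 bases from KCTD13, each on the opposite strand. The arrangements differ, as IDH1 and PACERR lie upstream with no overlap, while KCTD13 overlaps KCTD13-DT by 200 bases of exon. The nearest opposite start to CDIN1 is 48164 bases away. Of 12425 tested rows with a GENCODE position, 24.1% had an opposite start within 1 kb. For IDH1 this depends on the annotation, since RefSeq places its start 10.98 kb from that of PIKFYVE. The 3 partner rows did not share the NLS pattern. PACERR, a non-coding RNA described as a regulator of PTGS2, had 4, 1, 2 and 0 counts in the NES libraries and 0 in all NLS and G3BP1 libraries. The bases between the start sites of PTGS2 and PACERR are shown as the paired case, and the same length before the start of CDIN1 as the unpaired one, each on the strand of the named gene, from RefSeq's promoter sequences on GRCh38.p14 at chr1:186680428-186680621 (minus strand) and chr15:36579417-36579610 (plus strand). All 4 rows have an entry there, and those of PIKFYVE and KCTD13-DT are not shown because they lie in annotated transcripts. Capitals mark a TATA box, a CCAAT box, a GC box or CGTCA, on either strand.
PTGS2: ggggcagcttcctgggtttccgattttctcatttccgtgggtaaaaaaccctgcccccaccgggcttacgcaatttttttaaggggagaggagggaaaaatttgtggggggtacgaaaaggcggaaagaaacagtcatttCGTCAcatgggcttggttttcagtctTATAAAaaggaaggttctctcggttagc
CDIN1: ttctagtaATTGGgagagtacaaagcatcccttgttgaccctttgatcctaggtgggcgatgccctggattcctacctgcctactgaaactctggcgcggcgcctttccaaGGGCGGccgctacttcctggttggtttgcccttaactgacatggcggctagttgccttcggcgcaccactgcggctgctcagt

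The PTGS2 stretch holds 1 TATA box (TATAAA), found in 8.35% of 35116 RefSeq promoters over the same 194 bases, and 1 CGTCA, the core of a cAMP response element, found in 18.1%. The CDIN1 stretch holds 1 CCAAT box (CCAAT, 27.5% of promoters), 1 GC box (GGGCGG, 39.8%) and 1 antioxidant response element core (TGACNNNGC, 8.97%), and its GC content is 56.7% against 47.9% for PTGS2. The PTGS2 stretch also holds 1 E-box (CANNTG, 52.9%). Neither holds an AP-1 site (TGANTCA) or the full cAMP response element (TGACGTCA). Both strands were searched, CGTCA can be part of TGACGTCA, and a match of letters is not a measured site.

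Genes that work with the 4 were taken from 4 lists. Of 10 genes around CDIN1 and codanin, 7 could be tested. CDAN1, which encodes codanin, the partner of CDIN1, had 41, 50, 47 and 48 counts in the NLS libraries, 20 to 30 in NES and 14 to 19 in G3BP1. The NLS libraries lay above all others, by 0.81 over NES on the log2 scale (SE 0.182, edgeR adjusted p = 0.000363) and 1.31 over G3BP1 (SE 0.203). The call over NES was lost in the mock libraries alone (edgeR adjusted p = 0.0631). NASP, a histone chaperone, was also higher in NLS than in NES (log2 fold change 0.71, SE 0.126) and than in G3BP1 (0.43, SE 0.125, edgeR adjusted p = 0.00376), the latter not without NLS mock replicate 1 (adjusted p = 0.0809) or G3BP1 mock replicate 1 (0.0517). The erythroid factor GATA1 was higher in NLS than in G3BP1, with 7 to 15 against 1 to 5 counts (log2 fold change 1.73, SE 0.472). In NES it had 9 to 16 counts, and NLS against NES was not called (log2 fold change −0.07, edgeR adjusted p = 0.936). In all, 2 of 7 were higher than in NES and 3 of 7 higher than in G3BP1, with 0 lower, beside 5.51% of all rows higher against NES and 15.8% against G3BP1. The median log2 fold changes of the 7 were 0.058 and 0.43. After arsenite NASP was the 1 gene called in the NLS line (log2 fold change 0.44, edgeR adjusted p = 0.0381), a call lost without NLS mock replicate 2 (adjusted p = 0.517) and without NLS arsenite replicate 1 (0.381), in 6 of 20 alternatives in all. DESeq2 called 0 of the 7 after arsenite in the NLS line, and edgeR had 2 at an unadjusted p under 0.05. NASP was also called higher after arsenite in the NES line (log2 fold change 0.81, edgeR adjusted p = 0.000734) and in the G3BP1 line (0.78, edgeR adjusted p = 0.00125).

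Of 24 genes of endosomal phosphoinositides that act with PIKFYVE, 9 could be tested and 13 were under 10 counts in every library. ZFYVE16, an endosomal protein that binds phosphoinositides, had 48 to 54 counts in NLS, 21 to 39 in NES and 11 to 20 in G3BP1 (log2 fold change 0.63 and 1.57). Its call against NES was lost without NES arsenite replicate 2 (edgeR adjusted p = 0.0637). TPCN1, an endolysosomal channel, had 16 to 23, 4 to 21 and 5 to 9 counts and was called higher in both comparisons, with log2 fold changes of 0.95 and 1.25. Its call against G3BP1 was lost in 1 of 20 alternatives. The call against NES was lost without NES mock replicate 1 (edgeR adjusted p = 0.184), NES arsenite replicate 2 (0.148), NLS mock replicate 2 (0.0661) or NLS arsenite replicate 2 (0.0833). The phosphatase MTMR2 and the kinase PIP4K2B were lower in NLS than in both lines, by log2 fold changes of −0.24 and −0.47 against NES and −0.30 and −0.90 against G3BP1. The call of MTMR2 against NES was lost in 2 of 20 alternatives. The call of PIP4K2B against NES was lost without NES mock replicate 1 (log2 fold change −0.25, edgeR adjusted p = 0.481), NES arsenite replicate 1 (0.098), NLS mock replicate 1 (0.138) or NLS arsenite replicate 2 (0.0856). So 2 of the 9 were higher and 2 lower in each comparison, with median log2 fold changes of 0.24 and 0.22. Of all rows, 5.51% were higher and 6.78% lower than in NES, and 15.8% and 16.4% than in G3BP1. DESeq2 called 0 of the 9 against NES and 4 against G3BP1. FIG4, which forms a complex with PIKFYVE, had 56 counts in NLS, 40 in NES and 27 in G3BP1 in all and was not called (edgeR adjusted p = 0.437 and 0.0583). INPP5E was called higher after arsenite in the NES line (log2 fold change 1.35, edgeR adjusted p = 0.00138) and in the G3BP1 line (1.21, edgeR adjusted p = 0.00286). It was also the 1 gene called after arsenite in the NLS line (log2 fold change 0.88, SE 0.321, edgeR adjusted p = 0.0403). The call was lost without NLS mock replicate 1 (log2 fold change 0.45, edgeR adjusted p = 0.512), NLS arsenite replicate 1 (0.256) or NLS arsenite replicate 2 (0.0511), in 7 of 20 alternatives in all, and DESeq2 called 0 of the 9.

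Of 24 prostanoid genes 5 could be tested. PTGDR2, a receptor of prostaglandin D, was lower in NLS, with 235 to 322 counts against 303 to 394 in NES and 406 to 606 in G3BP1 (log2 fold change −0.38, SE 0.0676, and −1.08, SE 0.0637). It was the 1 gene of the 5 called in each comparison, where 12.3% and 32.2% of all rows were called, and the median log2 fold changes of the 5 were −0.26 and −0.58. PTGER4, a receptor of prostaglandin E, had 140, 98 and 100 counts in the NLS, NES and G3BP1 libraries and was not called (edgeR adjusted p = 0.171 and 0.335). After arsenite in the NLS line edgeR and DESeq2 called 0 of the 5, and 2, PTGER4 and PTGDR2, had an unadjusted p under 0.05. Of 12 genes around KCTD13 and cullin-3, 4 could be tested. By edgeR and DESeq2, 0 of the 4 were called against NES or after arsenite in the NLS line, and 1 had an unadjusted p under 0.05 in each. EdgeR called 12.3% and 17.8% of all rows there. KLHL20 was the row after arsenite (log2 fold change 0.77, edgeR adjusted p = 0.0519). It was called higher after arsenite in the NES line (0.72, edgeR adjusted p = 0.0454) and the G3BP1 line (1.15, edgeR adjusted p = 0.00139). Against G3BP1 2 of the 4 were lower, as were 16.4% of all rows. TNFAIP1, a cullin-3 adaptor related to KCTD13, and COPS5, a subunit of the signalosome, were lower in NLS than in G3BP1 (log2 fold change −0.38 and −0.43, edgeR adjusted p = 0.00459 and 0.00804). Both calls were lost in DESeq2 (adjusted p = 0.0942 and 0.0972), without G3BP1 mock replicate 2 (edgeR adjusted p = 0.0575 and 0.155) and without G3BP1 arsenite replicate 2 (0.0908 and 0.0515), and that of COPS5 also without NLS mock replicate 1 (0.105).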

How the data were processed

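Raw counts, deposited as 1 table with a row for each gene, fill 16 columns, of which 12 match a sample label and 4 were not used. The counts were read as such from the values. Trim Galore, Subread, featureCounts, edgeR and the build GRCh38.p13 are named in the submitters' processing notes, with no role or order. The strand setting and annotation release of the counting are not given in the sources used here. Positions came from GENCODE release 29 for 57005 rows and RefSeq (GRCh38.p14) for 120, both on GRCh38, whose patches leave chromosome coordinates as they are.

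Counts of 13108 rows that passed filterByExpr (minimum count 10, minimum total 15) were tested in R 4.3.3 with edgeR 4.0.16. The model had TMM scaling, 1 mean per line and treatment (6 residual degrees of freedom) and the quasi-likelihood F test, with Benjamini-Hochberg adjustment over all rows and a threshold of 0.05. Line comparisons average both treatments. Standard errors came from the fold change and F statistic. CPM used TMM-scaled totals, and log2 CPM a prior count of 2. The test was checked on simulated data. Replicates of each of the 6 groups differed beyond sampling noise (chi-square test). The named genes were the 4 rows, their neighbours, the list genes with most counts or called, and for each of the 4 the 3 rows with the highest correlation. BICC1, TENT5A, ZWILCH, FIG4, SMG1P2, SMG1P5 and ENSG00000285043 were named outside this rule, after their values were seen. The rows and lists were chosen with earlier results of these data known. Alternatives were other scalings and filters, DESeq2 1.42.0, replicate blocks, fewer libraries and leaving out each library.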

Additional observations from a re-analysis of the deposited data

Results flagged for a closer look

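The arsenite effect on APOB, the main apolipoprotein of low-density lipoprotein and one of the 15 hepatocyte markers, differed between the NLS and the G3BP1 line by a log2 difference of 0.85 (SE 0.202, edgeR adjusted p = 0.0306). APOB had 77 and 84 counts before and 124 and 143 after arsenite in the NLS line, and 145 and 140 before and 139 and 142 after in the G3BP1 line. In the NES line it had 92 and 83 before and 107 and 87 after. The difference between the NLS and the NES line was not called (log2 difference 0.43, edgeR adjusted p = 0.773). Of all rows tested, 0.183% were called in the comparison of NLS and G3BP1. How the call of APOB depends on the processing was not examined.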

How the results depend on the processing

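The arsenite effects of PIKFYVE (−0.81 to −0.75) and KCTD13-DT (−1.30 to −1.10) were called under all 20 alternatives, and those of CDIN1 (−0.38 to −0.06) under none of 20. PTGS2 (−0.74 to −0.41) was called under none of 19, and DESeq2 gave it no adjusted p. DESeq2 moved the number of rows called for arsenite in the NLS line from 2334 to 707, and leaving out each library gave 1321 to 2413, with 1321 without NLS arsenite replicate 2, 1355 without NLS mock replicate 1 and 1398 without NLS mock replicate 2. The neighbours called between NLS and NES went from 5 to 1 in DESeq2 and to 2 to 5 without each library. Counted within 1 Mb they were 13, and 21 against G3BP1. The 1 neighbour that DESeq2 called was PTH2R. All these counts include rows, such as PTH2R, that passed the filter only through NLS libraries, so the counts are a description. Of 577 alternative values for 29 comparisons of other named genes, 515 stayed on their side of the threshold, 61 lost a call, 1 gained one and 0 reversed. The replicate numbers did not pair the samples (r of same-numbered deviations −0.0492 in NES, −0.0101 in NLS and 0.00578 in G3BP1 over 6521 rows). With a replicate block within lines the log2 arsenite effects were −0.77 for PIKFYVE, −0.22 for CDIN1, −1.19 for KCTD13-DT and −0.57 for PTGS2, 2342 rows were called, and 5 and 4 neighbours, so the block changed no call of these. At these totals a row needed about 10 counts, scaled to library size, in at least 2 libraries to be tested.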
